A study of Mus musculus with 16 samples.

Results

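The integrated stress response and the unfolded protein response were followed through 40 genes in C2C12, a mouse cell line of muscle precursors whose cells stop dividing and fuse into myotubes when serum is lowered. The genes were listed by name, as known genes of these responses, and grouped by role. All 40 were found in the deposited table of 35275 genes, each in 1 row, and 38 passed the filter of a mean of at least 0.5 FPKM over all libraries (FPKM, fragments scaled for gene length and library depth). Of the other two, Slc7a3, a transporter of basic amino acids, reached at most 0.202 FPKM in any library, and Vldlr, a lipoprotein receptor, at most 0.0274 FPKM. Neither was tested, so every count below is of 38.

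Each library came from 1 of 4 lines. The controls were wild-type population 1 and population 2, and the knockouts were clone 1 and clone 2 of a line without miR-206 and both genes for miR-1a, miR-1a-2 and miR-1a-1, microRNAs of muscle (triple knockout, tKO). Every line was sampled growing in 20% serum (GM, myoblasts) and after 3 days in 2% serum (DM3, myotubes), in 2 cultures numbered BR1 and BR2 in the labels, which gave 4 groups of 4 libraries from cells that the labels call PAX7 NEG. Controls were populations and knockouts were clones, so the deletion and the origin of a line from 1 cell cannot be told apart. The study's title asks about mitochondrial function, muscle function and myogenesis. Levels of the deleted microRNAs were not analysed here, and the knockout labels therefore remain unchecked.

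In the integrated stress response, kinases that sense a shortage of amino acids, misfolded protein in the endoplasmic reticulum (ER), heme loss or viral RNA phosphorylate the initiation factor eIF2. Most translation then slows, while messages such as that of the transcription factor ATF4 are translated more, and ATF4 drives genes for amino acid synthesis, amino acid import and tRNA charging, together with Ddit3, which encodes CHOP. The unfolded protein response adds the ER sensors IRE1 and ATF6, whose targets include the chaperone BiP, encoded by Hspa5. Messenger RNA levels show neither eIF2 phosphorylation nor Xbp1 splicing, and these were not measured.

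Depth ranged from 22642563 to 56585952 fragments per library, and no replicate pair agreed within sampling noise. The summed level of 10 myoblast and myotube markers was 57.9 to 78.1 FPKM in control GM and 917 to 1308 in control DM3, and 44.3 to 111 and 416 to 1285 in the tKO groups. Myod1 was at 0 in all 4 control GM libraries. The summed level of 8 proliferation markers fell from 705 to 804 FPKM in control GM to 160 to 196 in control DM3, and from 635 to 861 to 81.1 to 213 in tKO cells. The 5 endothelial markers summed to at most 0.495 FPKM, the 5 leukocyte markers found to at most 4.08, the 5 adipocyte markers to at most 15.3, and the 5 epithelial markers to 2.34 to 6.46 in control GM against 9.28 to 13.5 in tKO GM. The part of these marker levels in the results below was not tested.

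The members covered a wide range of levels, and FPKM allows comparison between genes. Hspa5 ranked 96 among all genes by its mean over the 16 libraries, at 640 FPKM. Ddit3 followed at 215 FPKM and Hsp90b1, the ER chaperone GRP94, at 214. At the low end stood Slc7a11, the cystine importer, with a mean of 1.06 FPKM, and Stc2, a secreted glycoprotein, with 0.994 FPKM.

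**Figure D1:**
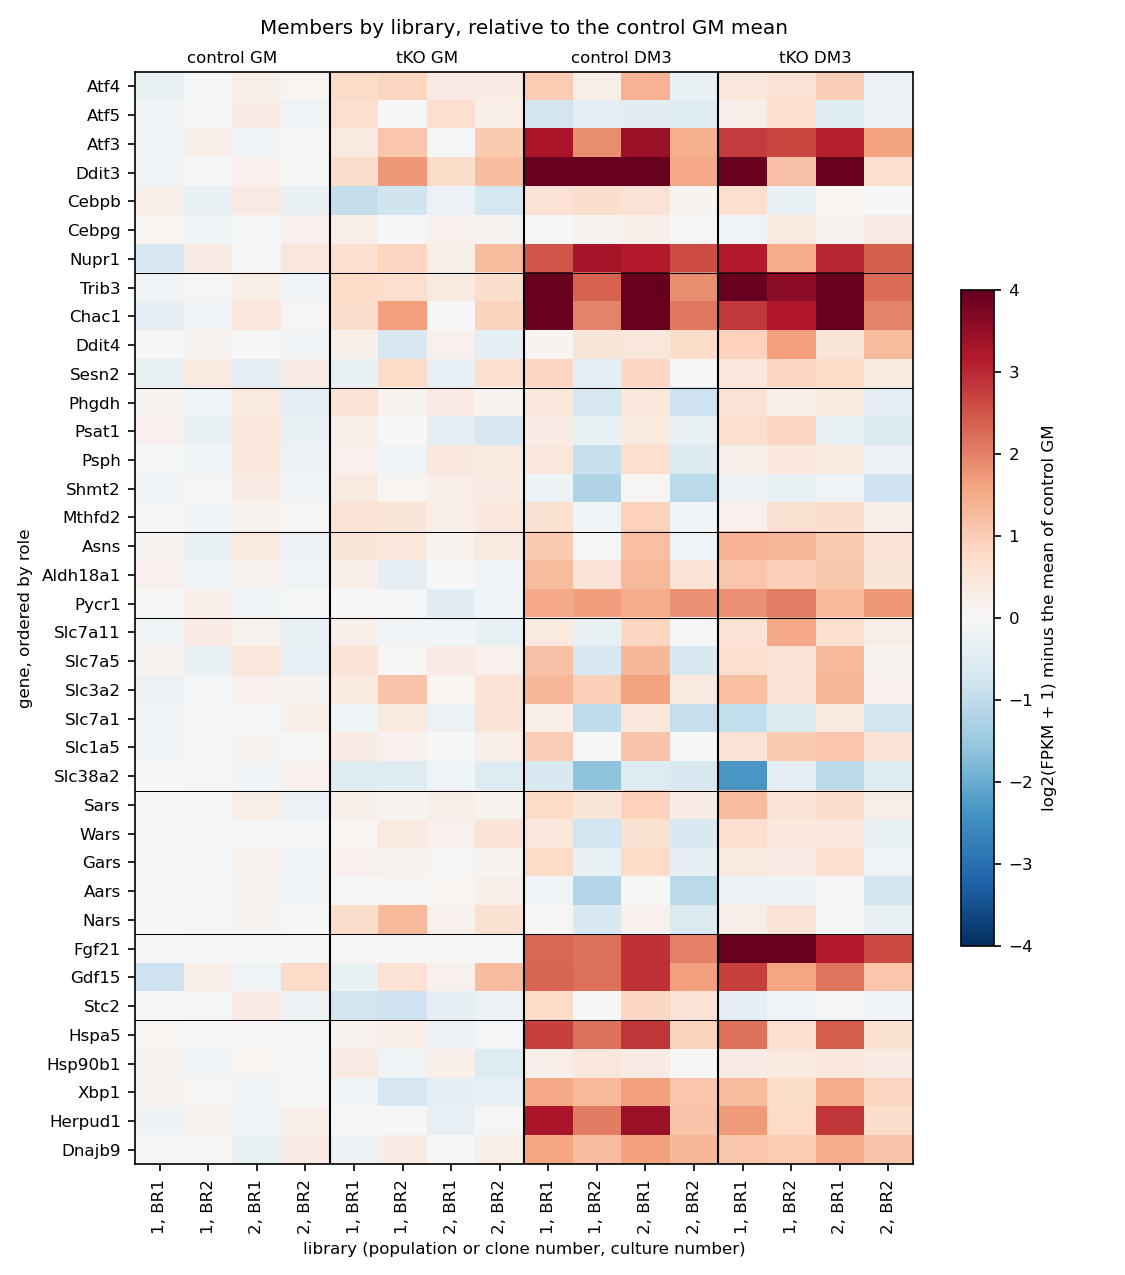
Each cell is 1 of the 38 tested members (rows, ordered by role) in 1 of 16 libraries (columns, grouped by genotype and stage, with line and culture number), coloured by log2(FPKM + 1) minus the mean of the 4 control GM libraries. The colour scale ends at -4 and 4, so larger differences look alike. Atf3, Ddit3, Nupr1, Trib3, Chac1, Fgf21, Hspa5 and Herpud1 were high in DM3, and in most of these rows the BR2 columns of DM3 are paler than the BR1 columns.

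With differentiation, some of the transcription factors and most ER members were called higher. Within each genotype, most genes of amino acid synthesis, amino acid import and tRNA charging were not called higher over both cultures. In control cells 18 of 38 members were higher in DM3 than in GM and 4 were lower (limma, adjusted p under 0.05), where 23.2% of all tested genes were higher and 38.3% lower. In tKO cells 19 were higher and 2 lower, where 24.9% of all tested genes were higher and 36% lower. The median log2 change of the members was 0.51 in control and 0.48 in tKO cells, against -0.15 and -0.12 for all tested genes. Of the calls, 15 were higher in both genotypes, 1 was lower in both, 6 were called in control cells alone and 5 in tKO cells alone, and whether those last 11 differed between genotypes is a matter for the interaction below. In bulk libraries more cells that express a gene and more RNA per cell cannot be told apart.

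Among the 7 transcription factors, 4 rose in control cells and 3 in tKO cells. Library values are given here and below in the order line 1 BR1, line 1 BR2, line 2 BR1 and line 2 BR2, where the line is a population in controls and a clone in tKO cells. Ddit3 (ENSMUSG00000025408, chr10:127290774-127296288), the factor CHOP that is known for promoting cell death under lasting ER stress, stood at 25.0, 28.2, 32.1 and 27.7 FPKM in control GM and at 547, 462, 740 and 82.6 FPKM in control DM3. All 4 control DM3 libraries lay above all 4 GM libraries, with population 2 BR2 far below the other three. The change was 3.60 on the log2(FPKM + 1) scale with a standard error (SE) of 0.756 (limma adjusted p = 0.00063), and it did not pass without population 1 (3.01, limma adjusted p = 0.0654). In tKO cells Ddit3 stood at 46.6, 95.8, 47.1 and 68.0 FPKM in GM and at 592, 65.4, 531 and 44.3 FPKM in DM3. Both BR1 clones were high in DM3, while the BR2 libraries lay within the range of tKO GM (clone 1) or below it (clone 2), and the change of 1.49 (SE 0.756) did not pass over both cultures (limma adjusted p = 0.0995). It passed without clone 1 BR2 (1.96, limma adjusted p = 0.0415) and without clone 2 BR2 (2.14, limma adjusted p = 0.0184). Within BR1 alone it was 3.55 (limma adjusted p = 5.43e-05) and within BR2 alone -0.58 (limma adjusted p = 0.549), while in control cells it was 4.44 and 2.76 (limma adjusted p = 2.41e-05 and 0.0213).

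Atf4 (ENSMUSG00000042406, chr15:80255184-80257540), the main effector of the integrated stress response, was not called at the level of its messenger RNA. Its values were 86.3, 101, 123 and 109 FPKM in control GM and 212, 125, 274 and 85.7 FPKM in control DM3. The control difference was 0.60 (SE 0.304, limma adjusted p = 0.0968). The BR2 library of population 2 lay just below the lowest GM library and the other three above the highest. Without it the difference was 0.89 (limma adjusted p = 0.0112), and with median-of-ratios scaling 0.80 (limma adjusted p = 0.043). Within BR1 it was 1.22 (limma adjusted p = 0.00845) and within BR2 -0.017 (limma adjusted p = 0.971). In tKO cells the values were 178, 189, 131 and 127 FPKM in GM and 141, 157, 207 and 88.2 FPKM in DM3, so the groups overlapped (difference -0.12, limma adjusted p = 0.757).

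The remaining factors rose, fell or were not called. Atf3, a stress-induced repressor, rose by 2.50 in controls and by 1.94 in the knockouts, and Nupr1, a small stress-induced chromatin protein, by 2.89 and 1.75. Cebpb, a partner of these factors, rose by 0.50 in control (limma adjusted p = 0.0484) and by 0.78 in tKO cells. Atf5, which activates mitochondrial stress genes, fell in control cells by 0.52, and its tKO difference was -0.34, not called. Cebpg, a dimer partner of ATF4, differed by 0.11 and 0.016, neither called.

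Among the 4 feedback and effector genes, 2 rose in control cells and 3 in tKO cells. Trib3 (ENSMUSG00000032715, chr2:152337422-152344032), a pseudokinase that restrains ATF4 and CHOP, stood at 1.95, 2.34, 2.80 and 2.00 FPKM in control GM and 66.6, 15.7, 79.6 and 10.8 FPKM in control DM3. The groups did not overlap, and both BR1 libraries of DM3 stood above both BR2 libraries (log2 change 3.31, SE 0.522, limma adjusted p = 4.77e-05). In tKO cells Trib3 went from 4.71, 4.16, 3.18 and 4.33 FPKM to 59.7, 37.9, 56.8 and 14.5 FPKM (log2 change 2.91, limma adjusted p = 0.000155). Chac1 (ENSMUSG00000027313, chr2:119351229-119354381), which degrades glutathione, stood at 2.31, 2.97, 4.95 and 3.49 FPKM in control GM and 98.9, 16.1, 127 and 17.6 FPKM in control DM3. Again the groups did not overlap and the BR1 libraries were the higher ones (log2 change 3.38, SE 0.604, limma adjusted p = 0.000154). Its tKO values were 6.06, 12.6, 3.41 and 7.04 FPKM in GM and 30.0, 39.2, 81.8 and 16.0 FPKM in DM3 (log2 change 2.25, limma adjusted p = 0.00414). Ddit4, an inhibitor of the growth kinase mTORC1, rose in tKO cells by 1.26, with a control difference of 0.45 that was not called. Sesn2, another mTORC1 inhibitor that senses leucine, differed by 0.33 and 0.42, neither called.

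The biosynthetic and transport members were mostly not called higher over both cultures. These differences average BR1 and BR2, which could move apart, as for Slc7a5 below. Of the 5 serine and one-carbon enzymes none rose in either genotype. Phgdh, the first enzyme of serine synthesis, differed by -0.16 and -0.073, and Psat1, Psph and the mitochondrial folate enzyme Mthfd2 were not called either. Shmt2 (ENSMUSG00000025403, chr10:127517123-127522444), which makes glycine and one-carbon units in mitochondria, was at 92.3, 98.0, 123 and 92.6 FPKM in control GM and at 86.9, 43.7, 105 and 47.4 FPKM in control DM3. The BR2 libraries lay below the GM range and the BR1 libraries reached into or close to it (log2 change -0.61, limma adjusted p = 0.0308, and -0.16 within BR1, limma adjusted p = 0.472). In tKO cells Shmt2 went from 129, 107, 121 and 125 FPKM to 86.3, 82.2, 89.5 and 56.9 FPKM, with no overlap (log2 change -0.62, limma adjusted p = 0.0269). The proline pair rose in both genotypes, with Pycr1, the last enzyme of proline synthesis, up by 1.63 and 1.89 and Aldh18a1, the first, up by 0.92 and 0.98. Pycr1 stood at 3.46, 4.10, 2.94 and 3.28 FPKM in control GM and at 11.7, 13.1, 11.4 and 14.8 FPKM in control DM3, a rise with little spread between cultures. Asns, asparagine synthetase, rose in tKO cells by 0.71 and differed by 0.52 in control cells, not called.

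Of 6 transporters tested, 2 rose in each genotype. Slc3a2, the heavy chain shared by several amino acid exchangers, rose in control cells by 1.07, and its tKO difference was 0.28, not called. Slc1a5, the neutral amino acid exchanger, rose by 0.54 and 0.64. Slc7a11 rose in tKO cells by 0.83, and Slc7a5, the leucine exchanger, and Slc7a1, a basic amino acid carrier, were called in neither. In populations 1 and 2, Slc7a5 went from 46.5 and 57.2 FPKM in GM to 96.1 and 106.9 FPKM in DM3 within BR1. Within BR2 it went from 34.5 and 33.1 FPKM to 26.5 and 26.9 FPKM. Slc38a2 (ENSMUSG00000022462, chr15:96687394-96699698), the glutamine carrier SNAT2, fell in control cells from 102, 94.8, 93.4 and 114 FPKM to 66.5, 32.2, 69.9 and 66.2 FPKM (log2 change -0.83, SE 0.329, limma adjusted p = 0.0373). Those groups did not overlap, while in tKO cells the range in DM3 was 19.1 to 77.0 FPKM and the difference of -0.66 was not called.

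Of the 5 tRNA synthetases, Sars, which charges serine tRNA, rose by 0.62 and 0.53. Aars (ENSMUSG00000031960, chr8:111033144-111057664), for alanine, stood at 102, 99.7, 109.9 and 92.3 FPKM in control GM and at 92.4, 44.0, 99.0 and 47.5 FPKM in control DM3. Its BR1 libraries stayed near the GM range while the BR2 libraries were low (log2 change -0.60, limma adjusted p = 0.0252, and -0.15 within BR1, limma adjusted p = 0.363). Nars (ENSMUSG00000024587), for asparagine, went from 181, 279, 126 and 172 FPKM in tKO GM to 134, 164, 111 and 90.4 FPKM in tKO DM3. The groups overlapped (log2 change -0.57, limma adjusted p = 0.0403). Gars and Wars, for glycine and tryptophan, were called in neither. All of these falls depended on the scaling. Median-of-ratios scaling, which moved the median change of all genes to 0.0097 and 0.0064, left 24 higher and 0 lower calls among the members in control cells, and 19 and 0 in tKO cells, where 61.2% and 60.5% of all tested genes were called in either direction. The falls in control cells were also lost without either population, where 12 and 14 members were called, all higher, beside 37.5% and 39.7% of all tested genes. The falls in tKO cells were lost without clone 2, where 13 members were called, all higher, beside 51.4% of all tested genes.

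Of the secreted and surface proteins 3 were tested. Gdf15, a circulating stress hormone, rose by 2.28 and 1.47, and Stc2 rose by 0.54 in control cells and differed by 0.38 in tKO cells, not called. Fgf21 (ENSMUSG00000030827, chr7:45613907-45615490), a hormone that muscle releases under mitochondrial stress, had 0 fragments in all 4 control GM libraries and 1 fragment in 1 tKO GM library. In control DM3 it stood at 3.94, 3.59, 6.65 and 3.05 FPKM. Against a floor of 3 fragments in a GM library (0.142 FPKM at the least depth) that mean was at least 30.2-fold higher. In tKO DM3 it stood at 17.5, 18.4, 8.07 and 5.22 FPKM, with 151 to 521 fragments per library. The rise was called in both genotypes, with log2 changes of 2.36 and 3.56 (limma adjusted p = 2.9e-06 and 3.95e-08).

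Of the 5 ER members, 4 rose in control cells and 5 in tKO cells. Hspa5 (ENSMUSG00000026864, chr2:34771970-34776531), the chaperone BiP and the standard marker of the unfolded protein response, stood at 258, 243, 245 and 239.8 FPKM in control GM and 1631, 1126, 1806 and 462 FPKM in control DM3. The groups did not overlap (log2 change 2.17, SE 0.414, limma adjusted p = 0.00028). In tKO cells Hspa5 went from 274, 298, 209 and 236 FPKM to 1103, 391, 1335 and 376 FPKM. The BR1 clones were well above the BR2 clones in DM3, and the change of 1.43 (limma adjusted p = 0.00685) was 2.34 within BR1 (limma adjusted p = 0.000133) and 0.53 within BR2 (limma adjusted p = 0.257). Without clone 2 it was 1.20 (limma adjusted p = 0.0827).

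Xbp1 (ENSMUSG00000020484, chr11:5520659-5525893), the factor that IRE1 activates by splicing, rose within each culture number, by 1.59 and 1.21 in controls and by 1.63 and 1.30 in the knockouts for BR1 and BR2. It stood at 42.3, 39.0, 34.7 and 36.1 FPKM in control GM and 113, 93.9, 121 and 83.2 FPKM in control DM3 (log2 change 1.40, SE 0.167, limma adjusted p = 2.66e-06). In tKO cells it went from 34.9, 23.3, 28.6 and 29.8 FPKM to 92.7, 63.4, 108 and 69.3 FPKM (log2 change 1.46, limma adjusted p = 1.57e-06). Herpud1, which helps to degrade ER proteins, rose by 2.48 and 1.62, and Dnajb9, a BiP co-chaperone, by 1.45 and 1.10. Hsp90b1 rose in tKO cells by 0.43, and its control difference of 0.25 was not called.

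**Figure D2:**
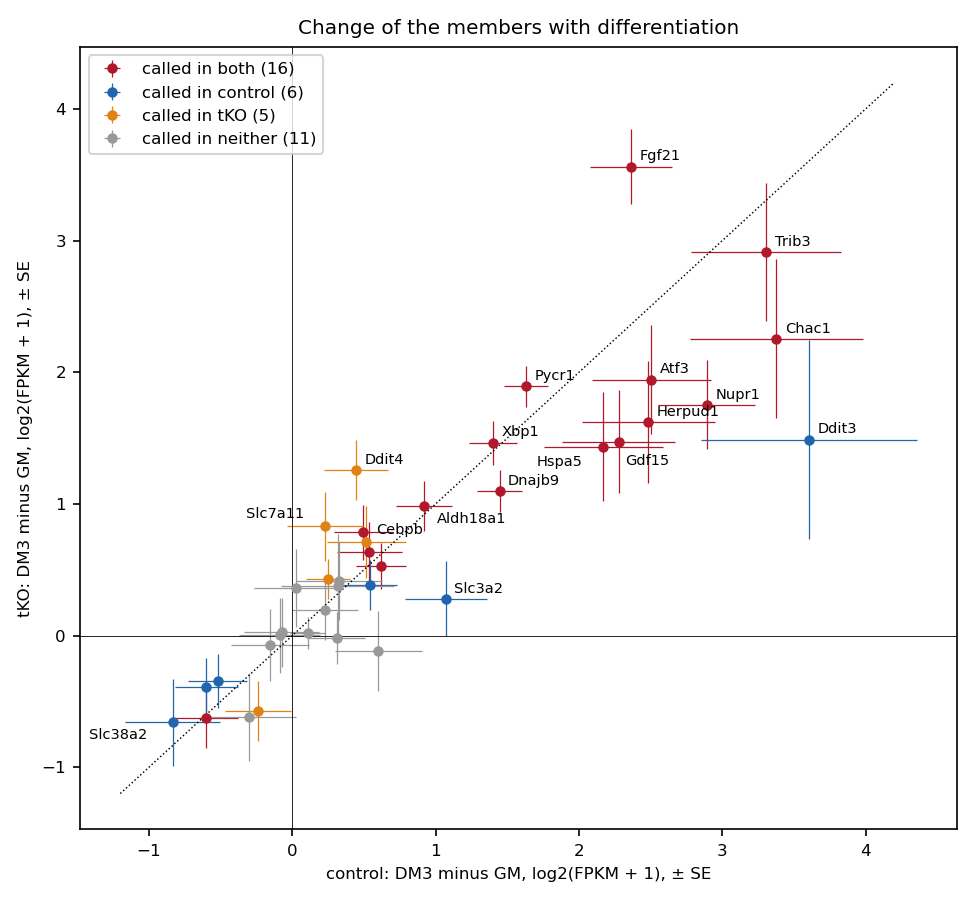
Each point is 1 of the 38 tested members, with its log2 change from GM to DM3 in control cells on the x axis and in tKO cells on the y axis. Bars are 1 SE from the limma fit, colours show in which genotype the change was called, and the dotted line marks equal change. Fgf21 lies above the line (2.36 and 3.56) and Ddit3 farthest below it (3.60 and 1.49), with wide bars.

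Run within each culture number, an alternative added after the data were seen, the stage comparison of BR1 gave 25 higher and 0 lower calls in controls, and 22 and 3 in the knockouts, where 48.2% and 52.8% of all tested genes were called in either direction. For BR2 it gave 16 and 5 in controls, and 14 and 4 in the knockouts, where 53.5% and 51.7% of all tested genes were called. Each of these fits had 2 libraries per group.

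**Figure D3:**
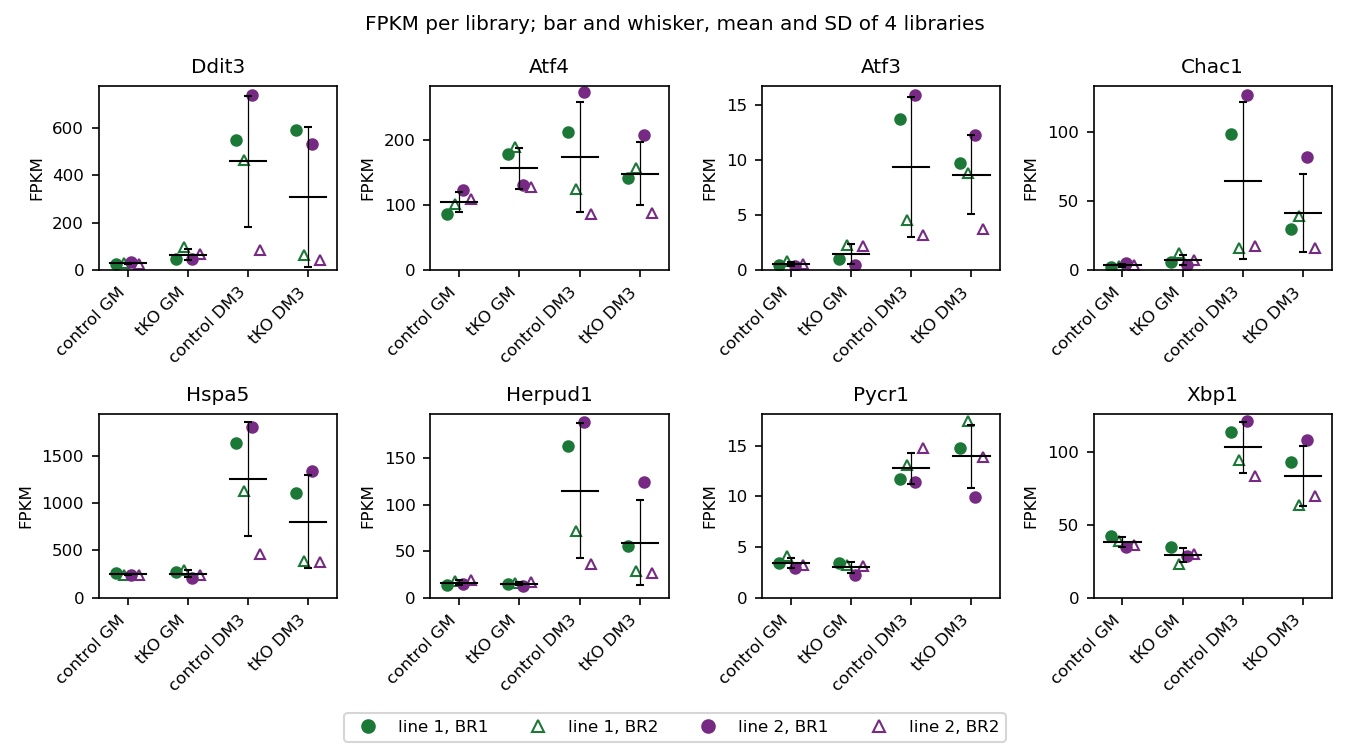
FPKM of 8 members by group (y axis, linear, from 0). Filled circles are BR1 and open triangles BR2, green is line 1 and purple line 2, and the bar and whisker are the mean and SD of 4 libraries. For Ddit3, Chac1, Hspa5 and Herpud1 the DM3 libraries spread over a wide range, with population 2 BR2 and clone 2 BR2 low in each. Clone 1 BR2 is also low for Ddit3, Hspa5 and Herpud1, and population 1 BR2 for Chac1. Pycr1 and Xbp1 are high in all 8 DM3 libraries.

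Few members differed between tKO and control cells by the test. In GM none of the 38 was called between tKO and control cells with limma or with voom, where 2.06% of all tested genes were called. At an unadjusted p under 0.05 there were 3 higher and 3 lower members. Of all 11832 tested genes, 877 were higher and 1199 lower at that threshold. The median difference of the members was 0.17 on the log2 scale, against -0.012 for all tested genes. A positive difference was seen in 27 of 38 members and in 5637 of all 11832 tested genes. The groups did not overlap for 6 members that were higher in tKO cells (Atf4, Ddit3, Trib3, Mthfd2, Wars and Nars), where 5.38% of all tested genes were so placed. They did not overlap for 2 that were lower (Slc38a2 and Stc2), where the share of all tested genes was 8.62%.

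Among the factors in GM, the lowest tKO library of Ddit3, at 46.6 FPKM, stood above the highest control library, at 32.1 FPKM. The mean was 28.3 ± 2.93 FPKM in controls and 64.4 ± 23.2 FPKM in tKO cells (SD, n = 4), a difference of 1.10 with an SE of 0.756 (limma adjusted p = 0.485). The SE is shared by all groups, and Ddit3 spread far more in DM3 than in GM. With only the 8 GM libraries in the fit the difference passed (limma adjusted p = 0.0425). Atf4 was at 105 ± 15.3 FPKM in controls and 156 ± 31.5 FPKM in tKO cells (difference 0.56, limma adjusted p = 0.354), with the lowest tKO library at 127 FPKM and the highest control at 123 FPKM. Cebpb went the other way, at 30.4 ± 7.18 FPKM in controls and 18.6 ± 4.36 FPKM in tKO cells (difference -0.67, limma adjusted p = 0.105).

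Chac1 differed by 0.82, Nupr1 by 0.76, Trib3 by 0.64 and Atf3 by 0.61, none of them called, and of these Trib3 alone had no overlap. Nars was at 112 ± 6.19 FPKM in controls and 189 ± 64.0 FPKM in tKO cells (difference 0.70, limma adjusted p = 0.125), and its highest value, 279 FPKM, came from clone 1 BR2. Hspa5 was at 247 ± 7.90 FPKM and 254 ± 39.4 FPKM, a difference of 0.032 that was within the spread of the libraries (limma adjusted p = 0.983). Xbp1 was at 38.0 ± 3.38 FPKM in controls and 29.2 ± 4.76 FPKM in tKO cells (difference -0.38, limma adjusted p = 0.248).

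In DM3, 1 member was called, Fgf21, where 3.38% of all tested genes were called. At an unadjusted p under 0.05 there were 3 higher members and 1 lower. Of all 11832 tested genes, 1096 were higher and 894 lower at that threshold. The median difference of the members was 0.095, against 0.0077 for all tested genes. No member was higher in tKO cells without overlap, where 4.22% of all tested genes were so placed, and 1, Stc2, was lower without overlap, against 4.3%. Control values enter the DM3 comparison and the stage comparison of control cells alike, so the DM3 and stage results are not independent.

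Fgf21 was at 4.31 ± 1.61 FPKM in control DM3 and 12.3 ± 6.61 FPKM in tKO DM3 (SD, n = 4). Clone 1 held both high values, at 17.5 and 18.4 FPKM, and clone 2 stood at 8.07 and 5.22 FPKM, the lower of which is inside the control range of 3.05 to 6.65 FPKM. The difference was 1.21 (SE 0.284, limma adjusted p = 0.0256), and over its alternatives the adjusted p ranged from 0.000148 to 0.542. It was 0.54 without clone 1 (limma adjusted p = 0.193), 1.10 without population 1 (limma adjusted p = 0.542) and 1.32 without population 2 (limma adjusted p = 0.186). It also missed the threshold without DM3 libraries population 1 BR1, population 1 BR2, population 2 BR2 or clone 1 BR2, one at a time (0.98 to 1.19, limma adjusted p = 0.0700 to 0.0871), and with line averages as units (limma adjusted p = 0.169). Within BR1 it was 1.07 and within BR2 1.35 (limma adjusted p = 0.342 and 0.134).

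Stc2 (ENSMUSG00000020303, chr11:31357307-31370074) stood at 2.36, 0.914, 2.48 and 1.89 FPKM in control DM3 and 0.477, 0.786, 0.897 and 0.815 FPKM in tKO DM3. The groups did not overlap, but the highest tKO and lowest control libraries almost met, and the difference of -0.71 (SE 0.191) missed the threshold (limma adjusted p = 0.0526). With median-of-ratios scaling it was called (-0.74, limma adjusted p = 0.0373). In GM it stood at 0.869, 0.859, 1.44 and 0.702 FPKM in controls and 0.169, 0.0887, 0.488 and 0.660 FPKM in tKO cells, a difference of -0.55 (limma adjusted p = 0.143). At these levels the log2(FPKM + 1) scale understates the fold.

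Leading genes of both responses were not called between genotypes in DM3 in the limma fit of group means. Ddit3 was at 458 ± 276 FPKM in controls and 308 ± 294 FPKM in tKO cells (difference -1.01, limma adjusted p = 0.536). Hspa5 was at 1256 ± 603 FPKM and 801 ± 492 FPKM (difference -0.70, limma adjusted p = 0.41). Herpud1 was at 115 ± 72.2 FPKM and 59.0 ± 45.6 FPKM (difference -0.96, limma adjusted p = 0.312). In each of these 3 genes the SD of the control group was larger than the difference between the means. That SD includes the difference between BR1 and BR2. Within each culture number both tKO libraries of Hspa5 and Herpud1 lay below both control libraries, while those of Ddit3 overlapped with the controls in BR1. Atf4 differed by -0.15 and Xbp1 by -0.32, with overlap in both. Ddit4 was at 122 ± 20.5 FPKM and 198 ± 65.1 FPKM (difference 0.64, limma adjusted p = 0.144). With a replicate block by culture number and stage, Herpud1 and Ddit4 were called.

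**Figure D4:**
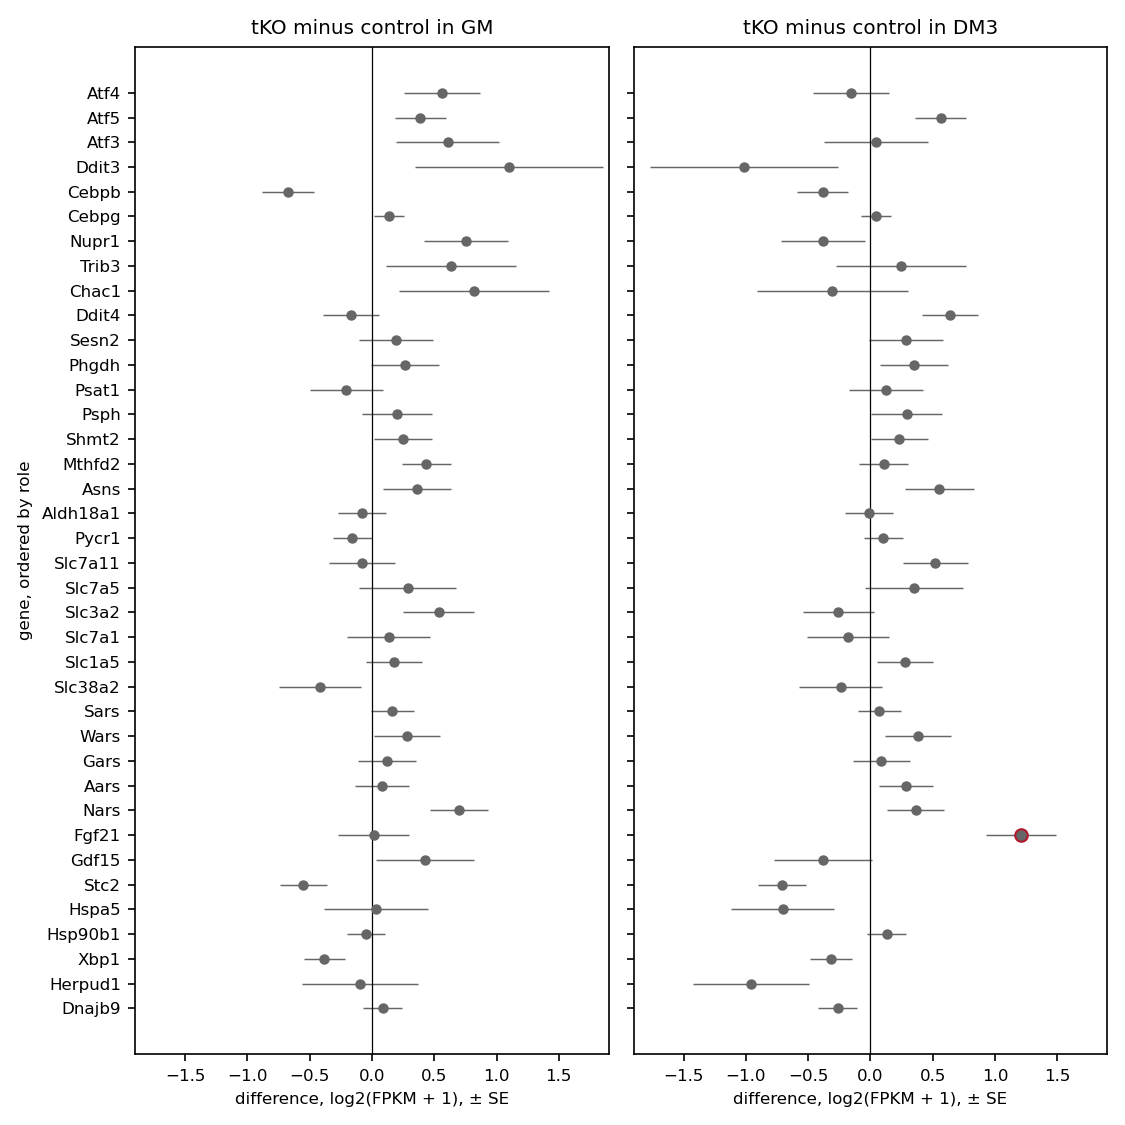
The log2 difference of tKO minus control for the 38 tested members in GM (left) and DM3 (right), with bars of 1 SE from the limma fit. The larger red point is the 1 called member, Fgf21 in DM3 at 1.21. Ddit3 lies at 1.10 in GM and at -1.01 in DM3.

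The effect of differentiation was not shown to differ between genotypes for any member. The interaction called 0 of 38 with limma, where 0.254% of all tested genes were called, and voom on fragment numbers also called 0. At an unadjusted p under 0.05 there were 2 higher (Fgf21 at 1.20 and Ddit4 at 0.81) and 1 lower (Nupr1 at -1.14). Of all 11832 tested genes, 759 were higher and 519 lower at that threshold. Ddit3 had the largest difference of differences, -2.12, with a limma adjusted p of 0.498. Leaving out clone 2 gave 1 call, Fgf21 at 1.85 (limma adjusted p = 0.0152).

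Lines of 1 genotype gave a yardstick. Between the clones 1 member was called, where 1.05% of all tested genes were called. Psat1 (ENSMUSG00000024640, chr19:15904678-15947337), the aminotransferase of serine synthesis, was lower in clone 2. In GM it stood at 117 and 100.1 FPKM in clone 1 and 78.6 and 62.1 FPKM in clone 2. In DM3 it stood at 156 and 180.3 FPKM in clone 1 and 82.6 and 67.3 FPKM in clone 2, while the 4 control DM3 libraries lay from 81.4 to 133 FPKM. The difference was -0.89 (SE 0.158, limma adjusted p = 0.0376), with adjusted p from 0.0338 to 0.139 over its alternatives. It did not pass with no filter or a stricter filter, or without any of clone 1 GM BR1, clone 1 GM BR2, clone 1 DM3 BR1, clone 2 GM BR2, clone 2 DM3 BR1 or clone 2 DM3 BR2. Between the control populations limma and voom called 0 members, where limma called 0% of all tested genes. At an unadjusted p under 0.05 there were 0 members, where 89 of all 11832 tested genes were higher and 15 lower in population 2.

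Many members, stress factors and biosynthetic genes alike, were lower in BR2 than in BR1 after differentiation. The median log2 difference of BR2 minus BR1 in DM3 was -0.55 for the members and 0.091 for all tested genes. No member was called with limma or voom over all 4 lines, where 0.0169% of all tested genes were called. At an unadjusted p under 0.05, 22 of 38 members were lower in BR2, where 6.97% of all tested genes were. At that threshold 2 members were higher in BR2, where 2121 of all 11832 tested genes were. The lowest were Ddit3 at -2.53, Trib3 at -1.83, Chac1 at -1.81, Herpud1 at -1.64 and Hspa5 at -1.45, with limma adjusted p between 0.0622 and 0.114. Ddit4, Pycr1, Slc38a2, Atf5 and Cebpg were the 5 with a positive difference, where 7461 of all 11832 tested genes had one.

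The lines did not share this alike. BR2 was below BR1 in 31 of 38 members in population 1, 36 in population 2 and 33 in clone 2, and in 19 in clone 1. Of all tested genes 49.3%, 41.9%, 39.4% and 35.9% were lower in BR2, in the same order of lines. The medians of the members were -0.73, -1.02 and -0.57, and -0.0076 in clone 1, against 0.0052, 0.065, 0.083 and 0.18 for all tested genes. In all 4 lines 17 members (44.7%) were lower in BR2, as were 10.4% of all tested genes. In both populations and clone 2, 30 members (78.9%) were lower, as were 19.9% of all tested genes. Of those 30 members, 13 were higher in BR2 in clone 1, among them Atf4, Chac1, Fgf21, Psat1 and Slc7a11. Of all tested genes, 2353 were lower in both populations and clone 2, and 1234 of these were also lower in clone 1.

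Leaving out either DM3 library of a line takes that line out of this comparison. Without clone 1, limma called 26 members, 25 of them lower in BR2, where 8.75% to 8.82% of all tested genes were called. Hspa5 was then at -1.44 and Atf4 at -1.22 (limma adjusted p = 0.0366 and 0.0109). Without population 1, 7 members were called, all lower, where 3.03% to 3.30% of all tested genes were, with Ddit3 at -3.29 (limma adjusted p = 0.0035). Without population 2 or without clone 2 limma called 0 of all tested genes. At an unadjusted p under 0.05 there were 20 and 19 members in either direction, and the share of all tested genes at that threshold was not counted. Among the amino acid genes the difference over the 4 lines was -0.86 for Phgdh, -1.25 for Slc7a5 and -0.83 for Wars, none of them called. The summed myoblast and myotube markers were 927 to 1285 FPKM in the BR1 libraries of DM3 and 416 to 1308 FPKM in the BR2 libraries. The summed proliferation markers were 81.1 to 212 FPKM and 131 to 213 FPKM. Their part in the culture difference was not tested.

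**Figure D5:**
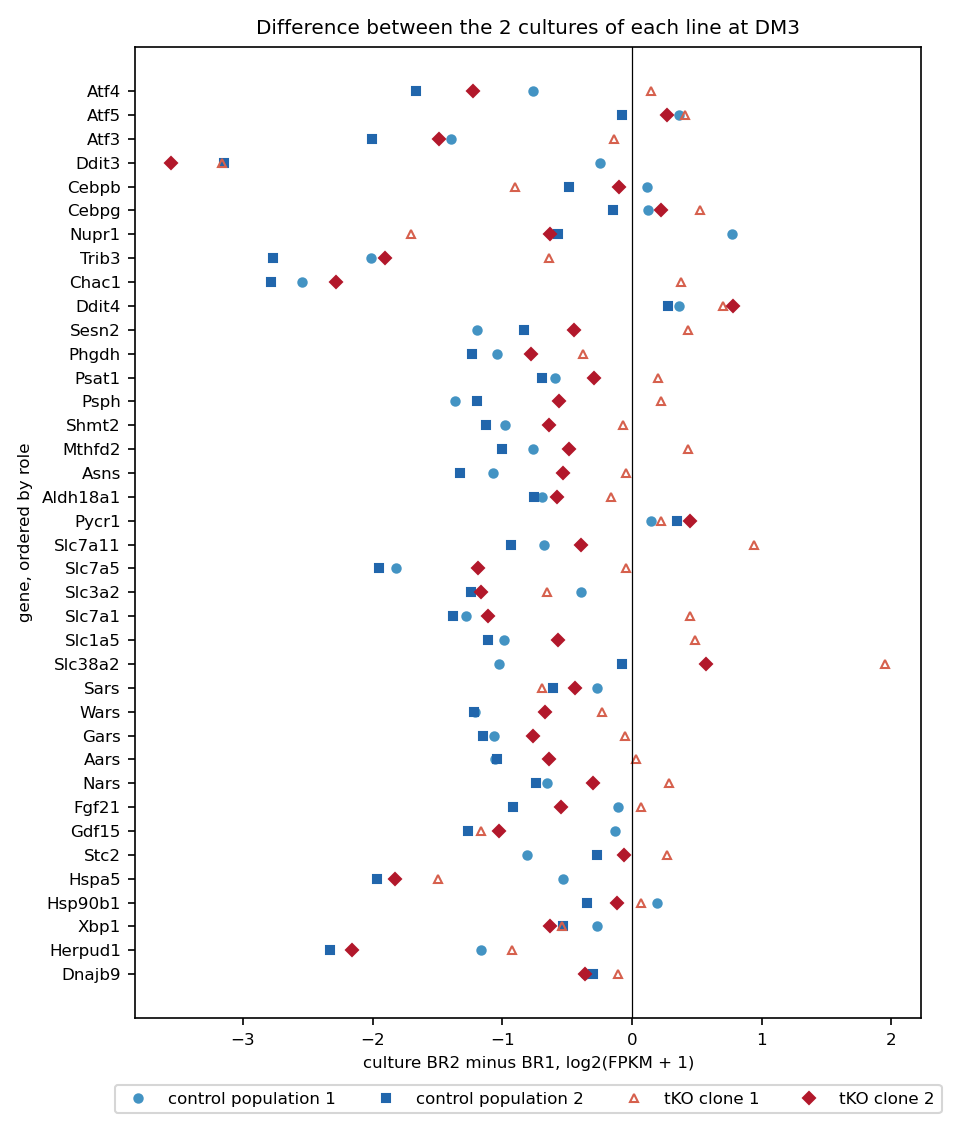
The difference of BR2 minus BR1 at DM3, in log2(FPKM + 1), for the 38 tested members (rows) in each of the 4 lines (symbols). Values are single differences between 2 libraries and have no error bar. Most symbols of both populations and clone 2 lie left of 0, while the open triangles of clone 1 lie on both sides.

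In GM the culture number split the members in both directions. Limma called 2 members higher in BR2, where 2.11% of all tested genes were called, and these were picked out after their values were seen. Gdf15 stood at 11.4 and 18.8 FPKM in BR1 and 25.2 and 36.4 FPKM in BR2 of the control populations, and at 17.5 and 23.7 against 32.0 and 50.5 FPKM in the clones (difference 0.97, limma adjusted p = 0.0188). Sesn2 stood at 12.4 and 11.9 FPKM in BR1 and 20.0 and 19.1 FPKM in BR2 of the control populations, and at 12.5 and 12.2 against 26.9 and 24.5 FPKM in the clones (difference 0.82, limma adjusted p = 0.0268). Every BR2 library was above its BR1 partner for both genes. Over all members the median difference was -0.035.

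The wider pathways were read from lists beside the members, and each count stands against the share of all tested genes that rose (23.2% in controls and 24.9% in the knockouts) or fell (38.3% and 36%). Of 18 eIF2 kinases, eIF2 and eIF2B subunits and regulators, 2 rose and 8 fell in control cells, and 1 rose and 11 fell in tKO cells. Impact, an inhibitor of the kinase GCN2, fell by 1.81 and 1.44, and the kinase PKR, encoded by Eif2ak2, by 1.39 in control cells. Of 6 sensor genes, 1 rose and 1 fell in control cells, where Mbtps1, a protease that cuts ATF6, had a change of -0.31. In tKO cells 2 rose and 1 fell, with Ern1, the sensor IRE1, at 0.43 and Rtcb, the ligase that joins spliced Xbp1, at -0.41. Atf6 rose by 1.04 in each genotype. Of 28 other ER folding and degradation genes tested, 19 rose and 2 fell in control cells, and 21 rose and 1 fell in tKO cells. Sdf2l1, a BiP cofactor, rose by 1.43 and Derl1, a channel for exported ER proteins, by 1.26 in control cells, and Ero1l, an oxidase that forms disulfide bonds, by 2.32 and Os9 by 1.40 in tKO cells.

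In the lists for tRNA charging, mitochondria and amino acids the calls went both ways, and the mitochondrial synthetases fell in the largest share. Of 15 other cytosolic synthetases, 1 rose and 3 fell in controls, 1 rose and 6 fell in the knockouts, and Rars, for arginine, fell by 0.94 and 1.08. Of 17 mitochondrial synthetases, 1 rose and 11 fell in control cells and 2 rose and 9 fell in tKO cells, and Yars2, for tyrosine, had changes of -1.03 and -1.42. Of 13 mitochondrial chaperones and proteases, 3 rose and 5 fell, and 3 rose and 4 fell. The chaperonin Hspd1 had changes of -1.61 and -1.82, while the protease Lonp1 rose by 0.71 and 1.10. Of 19 other amino acid genes tested, 7 rose and 7 fell, and 7 rose and 5 fell. Aldh1l2, a mitochondrial folate enzyme, rose by 2.49 and 3.13, and Shmt1, the cytosolic counterpart of Shmt2, had changes of -2.03 and -2.20. Falls in these lists carry the same limit of scaling as those of the members.

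Between genotypes 0 genes of any of these lists were called in GM with limma, with 1 to 4 higher and 0 to 3 lower at an unadjusted p under 0.05 in each list. In DM3 the ER list held 2 calls and the others 0, with 1 to 5 higher and 0 to 3 lower at an unadjusted p under 0.05 in each of those others. Of all 11832 tested genes, 877 were higher and 1199 lower at that threshold in GM, and 1096 and 894 in DM3. Ero1l was higher in tKO cells by 1.51 (limma adjusted p = 0.000394) and Sec61b, a subunit of the ER import channel, by 0.91 (limma adjusted p = 0.0151).

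Promoters of the members were searched because several of them moved together. RefSeq promoters on GRCm38.p6, from 250 bases before to 50 after the start, were found for 35 of the 40 members, and none were found for Slc7a5, Slc7a3, Slc1a5, Wars and Nars. The C/EBP-ATF response element, the site that ATF4 and its C/EBP partners bind, was searched as TGATGNAA on both strands. It was present in 12 of 35 members (34.3%), against 4.51% of 27025 genes, where a gene counts if any of its promoters matches (3.97% of 32851 promoters). The holders were Atf3, Nupr1, Trib3, Chac1, Asns, Pycr1, Slc7a11, Gars, Aars, Fgf21, Vldlr and Herpud1. Of the 11 that were tested, 7 rose in both genotypes with differentiation, as did 7 of the 23 tested members whose promoter lacks these letters. The members were listed as known genes of these responses, so the share is a description.

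Shown are 90 bases of the 4 holders with the largest genotype differences, written along the gene's strand, with the match, which reads on the opposite strand, in capitals. The windows are chr7:45615580-45615669 for Fgf21 (minus strand), chr8:94386277-94386366 for Herpud1 (plus), chr2:119351009-119351098 for Chac1 (plus) and chr7:126625531-126625620 for Nupr1 (minus). The first bases of the matches lie 139, 112, 193 and 110 bases before the starts.
Fgf21: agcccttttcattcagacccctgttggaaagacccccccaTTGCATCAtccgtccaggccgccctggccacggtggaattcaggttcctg
Herpud1: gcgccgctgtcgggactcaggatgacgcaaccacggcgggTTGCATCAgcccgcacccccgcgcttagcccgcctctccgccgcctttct
Chac1: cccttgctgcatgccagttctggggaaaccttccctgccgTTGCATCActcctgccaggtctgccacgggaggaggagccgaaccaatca
Nupr1: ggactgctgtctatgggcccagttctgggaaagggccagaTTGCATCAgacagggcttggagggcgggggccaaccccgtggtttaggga

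All 4 hold the same 8 letters, of which the search itself fixed all but the N. The unfolded protein response element, searched as TGACGTGG on both strands, was in 0 of the 35 members and in 0.714% of all genes. The ER stress response element, searched as CCAAT, any 9 bases and CCACG on both strands, was in 2 members, Hspa5 and Hsp90b1, and in 0.137% of all genes. The letters CGTGG of the first of these are the reverse complement of the CCACG of the second. A match is not a measured binding site, and a promoter without one may hold other forms.

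The deleted microRNAs share a seed (bases 2 to 8), which pairs with messages that carry its complement. The mature miR-206 of RefSeq (GRCm38.p6, chr1:20679055-20679076, plus strand) is shown with its seed in capitals, followed by the 8-base matches in the longest 3' UTR of the only members that hold one. Those UTRs are from GENCODE M21 on GRCm38, and the matches start at bases 798 of 1542 in Pycr1 and 60 of 2840 in Stc2.
mmu-miR-206-3p: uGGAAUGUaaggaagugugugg
Pycr1: agcttctgcggACATTCCAcacatgggatt
Stc2: cttatctatggACATTCCAaaacatttaca

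The 8-base match was in 2 of 40 members (5%) and in 4.51% of 10401 tested genes with a 3' UTR. A match of at least 7 bases was in 5 members (12.5%) and in 11.6% of those genes, so the members did not stand apart in seed matches. Pycr1 differed between genotypes by -0.16 in GM and 0.10 in DM3, and Stc2 by the values given above. A search of the UTR is a description, and neither gene was called higher in tKO cells.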

How the data were processed

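Poly(A)-selected RNA of 16 libraries was sequenced, per the labels' protocols. The authors deposited 1 table of FPKM values with a column for each library and no pooling. STAR, DESeq and mm10 are named, without versions, per the submitters' processing notes, and the counting program, annotation and use of strand are not given in the sources used here, so reads of overlapping or antisense genes cannot be told apart. FPKM times gene length gave whole fragments within 0.01 for 100% of values.

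Limma 3.58.1 in R 4.3.3 was fitted to log2(FPKM + 1), a scale that understates changes of low genes, as group means over all 16 libraries with trended, robust moderation. Genes under a mean of 0.5 FPKM were left out and the other 11832 were tested with Benjamini-Hochberg adjustment and called at an adjusted p under 0.05. Clone and population fits used 8 libraries with stage as a term, and culture fits the 8 libraries of a stage with line as a term. Groups came from the sample titles. Tested on simulated data of 11836 genes for the GM comparison, the fit recovered 98.0% of 4-fold and 73.2% of 2-fold changes, with 5.08% of calls false. The simulated libraries were independent, with the same dispersion for every gene and no line or culture differences. These rates therefore hold for that setting and not for genes that vary by line or culture.

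Fragments carry no molecular identifiers, so the floor of 3 fragments covers counting error only. The labels do not say that cultures were started separately, so p-values measure the spread between these libraries, which may be technical. Members and lists were chosen with earlier results of these data known. Values in every library are given for members called in a genotype, interaction or clone comparison, for the 3 largest called stage changes per direction and genotype, and for Atf4, Ddit3, Xbp1 and Hspa5, and other members by role. At most 2 called genes of a pathway list are named per comparison. Promoter windows were chosen by genotype difference among holders of a motif. The seed search and the fits within a culture number were added after the data were seen. Alternatives were another pseudocount, filter, scaling, voom on fragments, other units or libraries in the fit, replicate blocks, and leaving out libraries or lines. Python 3.11.15 was used for tables.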

Additional observations from a re-analysis of the deposited data

Results flagged for a closer look

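Of 150 groups of 4 values of the members, 4 had 1 library that stood far from the other three, and chance gives about 1 in 20 such groups. Psph, the phosphatase of serine synthesis, was at 14 FPKM in control GM population 2 BR1, where the other control GM libraries had 8.70 to 9.55 FPKM. Slc38a2 was at 89.1 FPKM in tKO GM clone 2 BR1, above the 69.7 to 72.4 FPKM of the other tKO GM libraries. In control DM3 population 1 BR2 it was at 32.2 FPKM, below the 66.2 to 69.9 FPKM of the others. Wars was at 30.0 FPKM in control GM population 2 BR2, where the others lay from 31.5 to 31.7 FPKM, so the gap is small in size.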

How the results depend on the processing

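Counts are of 38 members called with limma. Shares of all tested genes under the same settings are not given in this section, so a changed count cannot be read as particular to the members. In DM3 the count of 1 between genotypes became 0 with pseudocount 0.1, with no filter, with a filter of 5 FPKM (Fgf21 is then not tested), with only the compared libraries, with line averages, without population 1, population 2 or clone 1, and in BR1 alone. It became 2 with median-of-ratios scaling and 4 without clone 2. The GM count of 0 became 2 with only the compared libraries and 3 without clone 2. The stage count of 22 in control cells became 12 without population 1 and 14 without population 2, and that of 21 in tKO cells 13 without clone 2. The interaction count became 1 without clone 2. The count between clones was 0 with no filter, 0 with a filter of 5 FPKM and 2 with voom. For the culture number in GM the count of 2 was 0 with no filter, 5 with a filter of 5 FPKM and 6 with voom. Leaving out single libraries gave 17 to 22 for control stage, 18 to 22 for tKO stage, 0 to 2 for genotype in GM, 0 to 3 in DM3, 0 to 1 for the clones, 0 to 2 for the culture number in GM and 0 to 26 in DM3, and 0 for the interaction and the populations. No called value of Fgf21, Psat1, Atf4, Ddit3, Xbp1 or Hspa5 changed sign under the alternatives, while values that were not called did, among them Atf4 in control and Ddit3 in tKO differentiation within BR2. Of the counts, 158 of 208 alternative counts stayed within 1.5 times. Lone libraries left in a group are assumed to vary like the others.

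Deviations from the group means correlated positively on average, but not strongly, between libraries that share a culture number. The limma fits of group means above held no replicate block. Libraries of the same line and culture number in GM and DM3 had r of 0.0923 to 0.291 in control and 0.0771 to 0.323 in tKO cells, and 3 of 4 control and 1 of 4 tKO GM libraries correlated best with their own partner. Same-numbered libraries of the other genotype had a mean r of 0.25 in GM (0.0955 to 0.452) and 0.187 in DM3 (-0.224 to 0.558). A replicate block by culture number gave genotype counts of 1 in GM and 2 in DM3, and a replicate block by culture number and stage gave 1 in GM (Cebpb) and 4 in DM3 (Ddit4, Fgf21, Herpud1 and Stc2). With line and culture number together as the block the stage counts were 21 in control and 22 in tKO cells.

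Low levels limit Slc7a3, Vldlr, Stc2, Slc7a11 and Fgf21 in GM.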
